A study of Sus scrofa with 6 samples.

Results

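SGCE encodes epsilon-sarcoglycan, a membrane glycoprotein of the sarcoglycan family, which ties the cytoskeleton to the matrix outside the cell. In mouse and human it is expressed from the paternal chromosome, and loss of the paternal copy causes the movement disorder myoclonus-dystonia. SGCE lies head to head with PEG10, a retrotransposon-derived gene needed for placental growth, and the maternal chromosome is methylated over the region of both starts. Away from their start sites, mammalian genes are in general densely methylated, in exons and introns alike. The question here was how far that imprint reaches into SGCE, and what methylation the rest of the gene carried.

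The measurements are whole-genome bisulfite calls over one interval of chromosome 9 in the pig (positions 73250031 to 75349903, Sscrofa11.1). Bisulfite turns unmethylated cytosines to T, so the methylation level is the percentage of C among reads with C or T. There were 3 control embryos, labelled untreated and called wild-type in the title of the series, and 3 parthenotes, which arose from electrically activated oocytes without sperm and hold maternal chromosomes only. All 6 were whole embryos at embryonic day 21 from a Landrace x Yorkshire x Duroc cross. How the control embryos were produced is not given in the labels. The parthenotes had been placed in the oviducts of 2 surrogate gilts of the same cross. The labels do not say which embryos shared a litter, so p-values measure the spread between these embryos only. A whole embryo mixes many cell types, and a level between 0 and full can reflect a share of chromosomes or a share of cells, which cannot be told apart here.

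The CpGs of SGCE were taken as those that the deposited annotation names for SGCE, in the gene or in its promoter, and not also for PEG10. That rule gave 488 CpGs of the 14091 with a read in the interval: 449 in introns, 35 in exons and 4 downstream. No CpG of the SGCE promoter or its UTRs was among them. The CpGs of the promoter and 5' UTR also name PEG10, and no CpG naming SGCE alone is annotated to a 3' UTR. SGCE (gene 100240725) runs on the minus strand from 74473904 to 74402714 on chromosome 9, 71191 bp, and starts 217 bp from PEG10. The nearest of the 488 CpGs lies 1803 bp into the gene. Another 149 CpGs name both genes and were left out, and 52 of them lie inside SGCE and are shown as the edge for comparison. Over the interval 380163 to 406443 C-or-T reads were counted per embryo, and over the 488 CpGs 14580 to 16359, with a median of 29.0 to 33.5 per CpG. Control 1 was low over the whole interval: in the 7825 CpGs of other gene bodies it stood at 75.0%, against 83.1 to 85.5% in the other 5 embryos.

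The difference between parthenotes and controls faded within the first few kilobases of SGCE. In the 22 edge CpGs of the first 500 bp, controls 1 to 3 stood at 61.5, 38.8 and 40.8%, and parthenotes 1 to 3 at 83.3, 87.1 and 96.9%. Every parthenote was above every control, and the means were 47.0% ± 12.6 (SD, n = 3) and 89.1% ± 7.03 (SD, n = 3). In the 20 edge CpGs from 500 to 1000 bp, controls stood at 35.6, 47.4 and 32.7% and parthenotes at 51.9, 47.7 and 84.6%. There parthenote 3 stood apart, and parthenote 2 lay beside control 2. In the 8 edge CpGs from 1000 to 1500 bp, controls stood at 32.1, 36.4 and 33.2% and parthenotes at 57.3, 65.6 and 83.0%. The groups were again apart, with parthenote 3 highest in each of these 3 stretches. The 95% Wilson intervals of these levels, which cover counting error only, reached at most 7.32 points from the level.

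**Figure D1:**
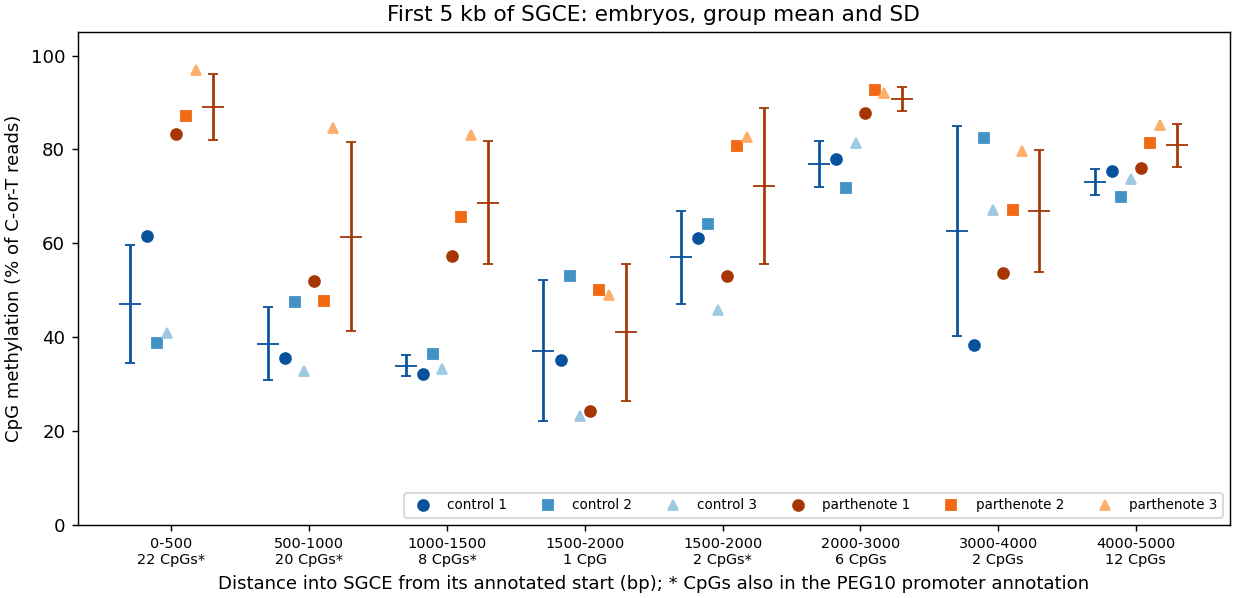
Methylation level (% of C-or-T reads) of each embryo by distance into SGCE (bp), with the group mean and SD (n = 3) beside the points; stretches with an asterisk hold CpGs that also lie in the PEG10 promoter annotation. The parthenote minus control difference is 42.1 points in the first 500 bp, 22.8 points from 500 to 1000 bp and 34.7 points from 1000 to 1500 bp. From 1500 to 2000 bp it is 15.2 points with an asterisk and 3.96 points without. Beyond, it is 13.8 points from 2000 to 3000 bp, 4.25 points from 3000 to 4000 bp and 7.88 points from 4000 to 5000 bp.

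Fixed windows of 500 bp, which regroup largely the same reads, were tested. In the window at 74473500, which spans the start of SGCE, controls stood at 62.3, 35.4 and 34.2% and parthenotes at 89.7, 90 and 96.5%. The difference of 48.1 points was called by edgeR's quasi-likelihood test (adjusted p = 3.8e-05). That call was lost in limma after centring every embryo on its median (adjusted p = 0.0884) and held in limma without centring and in DESeq2. One window further in, at 74473000, controls stood at 38.2, 60.9 and 35.4% and parthenotes at 71.3, 70.7 and 89.6%. The groups did not overlap and differed by 32.4 points, but the edgeR adjusted p was 0.177. Without control 2, the highest of the controls, the same window was called (edgeR adjusted p = 0.0023), and it was called with the replicate block (edgeR adjusted p = 0.0169). At 74472500 controls were tight, at 33.7, 36.7 and 34.3%, and parthenotes spread, at 46.1, 53.1 and 81.9%. That difference of 25.5 points was not called (edgeR adjusted p = 0.86). With windows of 250 bp, the window starting there was called, at 43.3 points (edgeR adjusted p = 0.0199). Where the called stretch ends inside SGCE therefore depended on the embryos and the window size.

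The spread among parthenotes in this window was widest over a short run of CpGs. At 74472943 parthenotes 1 and 2 stood at 26.3 and 29.2%, below the controls at 38.7, 40.9 and 43.8%, while parthenote 3 stood at 76.5%. At 74472679, closer to the gene's interior, all 3 parthenotes were above the controls: 56.7, 65.6 and 83.7% against 26.1, 22.9 and 23.1%. Both CpGs were chosen after their values were seen, as examples of the run. Among the 21 edge CpGs deep enough to test, the parthenote mean was higher in 21, edgeR called 0, and 11 had an unadjusted p under 0.05. Over the 12359 tested CpGs of the interval those shares were 65.95% higher, 0.429% called and 3.29% at an unadjusted p under 0.05. The smallest edgeR adjusted p among the 21 was 0.102. The count of 0 depended on the setting: limma called 2 of the 21, edgeR with the replicate number as a block called 2, edgeR without control 1 called 1, and edgeR called 3 without CpGs whose opposite-strand reads showed A in place of G, a sign of a sequence variant. The CpG at 74472679 was among those called with the block (adjusted p = 0.0349) and without such CpGs (adjusted p = 0.0353). DESeq2 called 0.

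The first CpG that belongs to SGCE alone, in an intron at 74472101, no longer separated the groups. Controls stood at 35.1, 52.9 and 23.1% and parthenotes at 24.1, 50 and 48.9%. The embryos of both groups were mixed, both means were low, at 37.1% ± 15.02 (SD, n = 3) and 41.0% ± 14.6 (SD, n = 3), and the exact two-sided permutation p was 0.9. It is the only SGCE CpG in the first 2 kb, with 26 to 45 reads per embryo, and its 95% Wilson intervals reached up to 19.0 points. The smallest p that 3 against 3 embryos allow is 0.1. The 2 nearest edge CpGs, at 74472140 and 74472143, stood at 61.1, 64.2 and 45.7% in controls. In parthenotes they stood at 52.9, 80.8 and 82.8%, a difference of 15.2 points with parthenote 1 among the controls. The window at 74472000, which holds these CpGs and 74472101, differed by 17.3 points and was not called (edgeR adjusted p = 0.995).

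From 2 to 5 kb into the gene the parthenotes were again above the controls, by less. The 20 SGCE CpGs there stood at 72.0, 71.9 and 75.5% in controls and at 77.5, 83.8 and 86.6% in parthenotes. The groups did not overlap, with a difference of 9.5 points and parthenotes 2 and 3 furthest up. This stretch was set off after its values were seen and has no test of its own. Within it, the 6 CpGs from 2000 to 3000 bp differed by 13.8 points, the 2 from 3000 to 4000 bp by 4.25 points and the 12 from 4000 to 5000 bp by 7.88 points. The difference therefore did not fall evenly with distance.

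The window at 74471500, at 1905 to 2404 bp into the gene, had the highest difference of all SGCE windows. Controls stood at 73.5, 54.0 and 72.9%, and parthenotes at 78.2, 88.8 and 89.7%, a difference of 18.8 points. Control 2 was the low one, and without it the difference was 12.4 points. The next window, at 74471000, stood at 83.2, 91.9 and 91.2% against 95.7, 96.6 and 94.7%. The groups were apart there too, by 6.93 points. Neither window was called (edgeR adjusted p = 0.995 for both), although they were the 2 SGCE windows with an unadjusted p under 0.05. Of the 20 tested SGCE CpGs within 5 kb of the start, the parthenote mean was higher in 17, with a median difference of 8.39 points and a range from -3.89 to 23.4. Over the interval the parthenote mean was higher in 65.95% of tested CpGs, with a median difference of 2.00 points. Control 1 was the lowest embryo in 71.5% of all windows. Summed from 2 to 5 kb into SGCE, control 1 stood at 72.0% beside 71.9% in control 2. That sum hides a mixed order. In the 2 CpGs from 3000 to 4000 bp control 1 was lowest, at 38.3% against 82.4 and 67.2% in controls 2 and 3. From 2000 to 3000 bp and from 4000 to 5000 bp control 2 was the lowest control, at 71.7 and 69.9%, against 77.9 and 75.3% in control 1. edgeR called 0 of the 20, and 2 had an unadjusted p under 0.05, against 0.429% and 3.29% over the interval.

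Over the whole gene body no site or window passed the test. edgeR called 0 of 473 SGCE CpGs, against 0.429% of the 12359 CpGs tested in the interval. At an unadjusted p under 0.05 there were 16 SGCE CpGs, 10 higher and 6 lower in parthenotes (3.38%, against 3.29% over the interval). limma and DESeq2 also called 0. edgeR called 0 of 87 SGCE windows, against 0.314% of 1911, and 2 had an unadjusted p under 0.05 (2.46% over the interval). limma and DESeq2 called 0 windows as well. The groups did not overlap in 5 of the 87 windows (5.75%), against 7.01% of all windows, a share below that of the interval. The median window difference was 2.20 points in SGCE and 2.35 over the interval.

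The level of the gene body, 484 CpGs in exons and introns, was 71.8, 79.0 and 79.97% in controls and 78.5, 79.996 and 80.2% in parthenotes. Control 1 was below all others, and the other 5 embryos lay within a narrow band. The means of 76.9% ± 4.45 (SD, n = 3) and 79.6% ± 0.93 (SD, n = 3) differed by 2.64 points, less than the spread among controls (exact two-sided permutation p = 0.5). Without control 1 the difference was 0.086 points. Wilson intervals at 95% reached at most 0.717 points and are likely too narrow. Set against the other gene bodies of the same embryo, SGCE was lower by 3.19, 6.52 and 3.13 points in controls and by 4.74, 3.63 and 4.73 points in parthenotes. The groups overlapped, and the difference of -0.09 points gave an exact two-sided permutation p of 1.0. Beyond 5 kb, over 463 CpGs, the means were 77.2% ± 4.6 (SD, n = 3) and 79.5% ± 0.75 (SD, n = 3), with an exact two-sided permutation p of 0.7. Without control 1 that difference was -0.315 points.

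**Figure D2:**
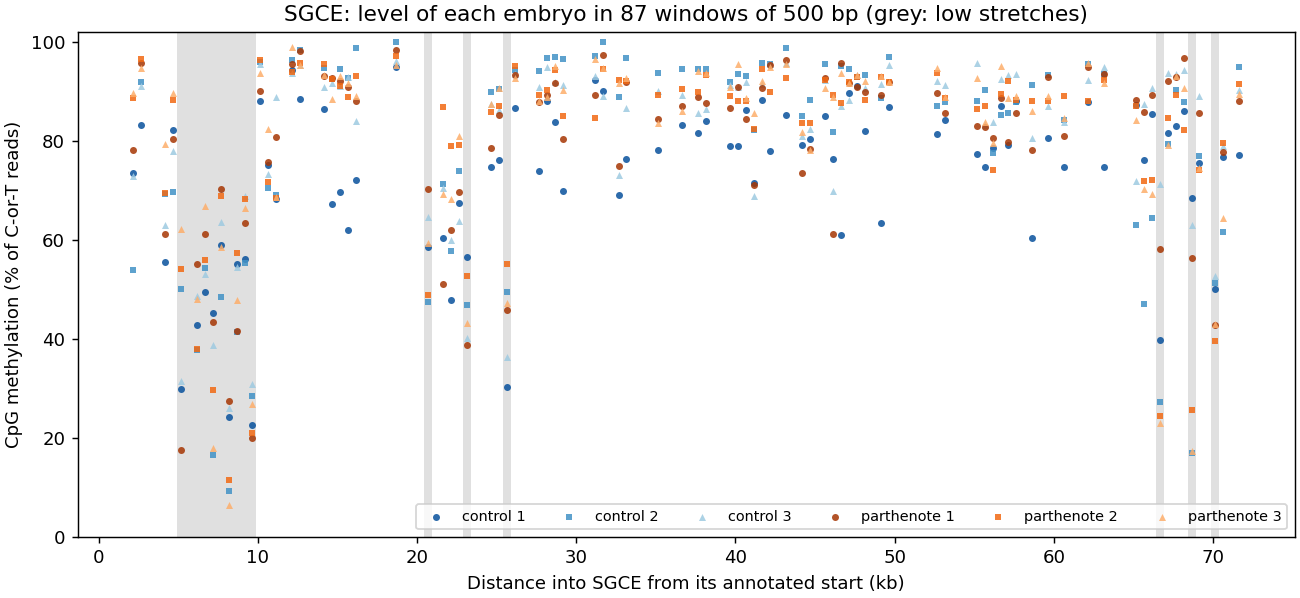
Methylation level (% of C-or-T reads) of each embryo in the 87 SGCE windows of 500 bp, by distance into the gene (kb). Grey bands mark runs of windows with a mean under 60%, with gaps of at most 500 bp bridged. The widest band therefore also holds windows with means of 63.1 and 61.5%. In 49 of the 87 windows every embryo but control 1 lies above 80%, and the widest grey band, from 4905 to 9904 bp, holds 7 of the 13 low windows.

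Exons and introns of SGCE carried different levels and neither differed between groups. The 35 exon CpGs, which lie between 74404800 and 74447292, stood at 81.3, 87.9 and 86.7% in controls and 83.4, 87.7 and 86.4% in parthenotes. The groups overlapped, with means of 85.3% ± 3.52 (SD, n = 3) and 85.8% ± 2.23 (SD, n = 3) and an adjusted p of 0.969 in edgeR. The 449 intron CpGs stood at 71.0, 78.2 and 79.4% in controls and at 78.1, 79.4 and 79.7% in parthenotes. Their means were 76.2% ± 4.55 (SD, n = 3) and 79.1% ± 0.82 (SD, n = 3), with an adjusted p of 0.914 in edgeR. edgeR called 0 of these 2 sets, with 0 at an unadjusted p under 0.05, against 4.41% of the 68 gene sets of the interval. In every embryo the summed level of the SGCE exons was above that of its introns. The intron set includes the low stretches described below, where no exon CpG lies. Among CpGs with 10 or more reads in every embryo, the median was 87.3% in exons and 85.8% in introns. In introns beyond 10 kb it was 88.1%, so the contrast did not hold there. The 4 CpGs downstream of the gene stood at 77.2, 95.05 and 90.3% in controls and at 88.1, 91.5 and 89.6% in parthenotes, again with control 1 lowest.

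SGCE introns held several low stretches, while the typical SGCE window was highly methylated. The median SGCE window was at 86.6%, near the 87.2% of all windows. A mean under 60% over the 6 embryos was found in 13 of 87 SGCE windows (14.9%), against 5.76% of all windows, and all 13 held intron CpGs only. They were chosen by their level, so the level is a description. With the windows of these stretches left out, the body stood at 77.9, 86.8 and 86.9% in controls and at 85.5, 86.8 and 87.2% in parthenotes. Of the 434 SGCE intron CpGs with 10 or more reads in every embryo, 32.5% lay between 20 and 80% and 3.23% under 20%. In the introns of other genes those shares were 18.9 and 1.71% of 5950.

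The longest low stretch ran for 5000 bp, from 74464000 to 74468999, at 4905 to 9904 bp into the gene. Its 56 CpGs stood at 41.5, 40.05 and 46.7% in controls and at 42.8, 46.5 and 46.2% in parthenotes. The embryos of both groups were mixed, and control 1 was not set apart. The means were 42.7% ± 3.51 (SD, n = 3) and 45.2% ± 2.09 (SD, n = 3), and the smallest edgeR adjusted p of its windows was 0.995. Intermediate levels were thus measured in embryos with maternal chromosomes only as well as in controls. Both strands gave like levels, 42.6 and 42.9% in controls and 47.0 and 43.7% in parthenotes. At 11.2 CpGs per kb it was more CpG-rich than the next 5 kb at 7.4, and far less so than the first 500 bp of the gene at 44.0. Some bins of like density stood at higher levels, and how level relates to CpG density was not tested. The bin from 4000 to 5000 bp held 12.0 per kb, with group means of 73.0 and 80.9%. That from 40000 to 45000 bp held 10.4 per kb, with means of 86.0 and 88.2%. Beyond the low stretch, from 10000 to 15000 bp, the level was back at 85.5% ± 4.3 (SD, n = 3) and 87.5% ± 0.5 (SD, n = 3).

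Within the stretch, neighbouring CpGs ranged from 1.53 to 89.7% with all embryos pooled. Of the 56, 11 were under 20% and 4 at 80% or more. The deepest point was a run of 5 CpGs from 74464136 to 74464191, at 7.61, 1.70, 3.93, 3.48 and 1.53%, with 176 to 201 reads each over the 6 embryos. On one side the level rose to 33.9% at 74464073, 61.8% at 74464040 and 80.6% at 74464024, so an almost unmethylated run lay next to a mostly methylated CpG. The highest value of any embryo at these 5 CpGs was 16.3%, in control 1. A second low site, at 74465618, stood at 2.29%. Between them the pair at 74465089 and 74465092 stood at 82.7 and 82.1%.

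**Figure D3:**
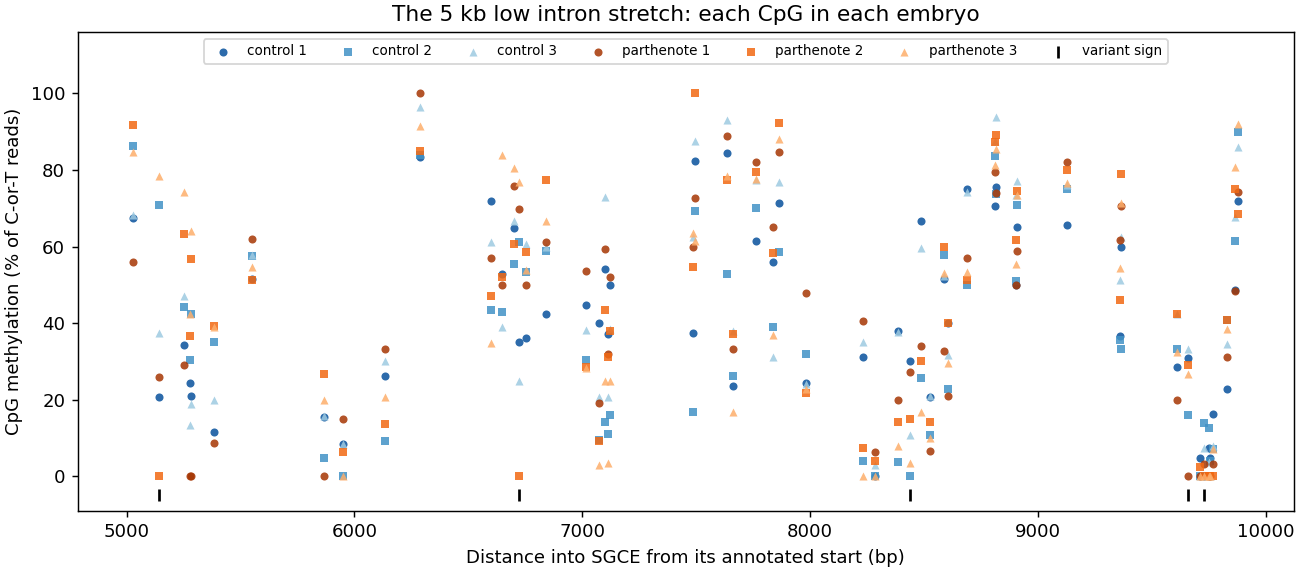
Methylation level (% of C-or-T reads) of each of 56 CpGs in each embryo across the low stretch, by distance into SGCE (bp); ticks under the points mark 5 CpGs with signs of a sequence variant (opposite-strand reads with A in place of G). Levels run from near 0 to near full within the stretch, and controls (blue) and parthenotes (orange) are interleaved.

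The other 6 low stretches were single windows. At 74403500, near the 3' end of the gene, controls stood at 50, 51.4 and 52.7% and parthenotes at 42.9, 39.5 and 43.0%. It was the one low window in which all parthenotes lay below all controls, by 9.55 points, and it was not called (edgeR adjusted p = 0.995). At 74448000, controls stood at 30.2, 49.5 and 36.3% and parthenotes at 45.8, 55.1 and 47.2%. At 74450500 the levels were 56.5, 46.9 and 40.2% against 38.8, 52.6 and 43.3%. At 74453000 they were 58.5, 47.5 and 64.7% against 70.3, 48.9 and 59.5%. In these 3 windows the groups overlapped. The remaining low windows, at 74405000 and 74407000, were also among the most variable.

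Embryos of the same group differed widely in 5 named windows, chosen as those with the largest range within a group. At 74405000 controls stood at 68.4, 17.0 and 63.1% and parthenotes at 56.4, 25.5 and 17.2%. Control 2 and parthenotes 2 and 3 were low, and the other 3 embryos were high. Each of the 2 strands gave the same 3 low and 3 high embryos, and the 95% Wilson intervals reached at most 9.73 points. The difference of -16.4 points was the lowest of all 1911 windows, but far smaller than the spread within each group (edgeR adjusted p = 0.995). At 74407000, 2000 bp away, controls stood at 39.8, 27.3 and 71.3% and parthenotes at 58.2, 24.4 and 23.1%. The same 3 embryos were the lowest there, with control 1 in between. At 74408000 control 2 stood at 47.1%, against 76.2 and 87.6% in the other controls and 85.9, 71.9 and 70.2% in parthenotes.

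At the near side of the 5 kb low stretch, the same embryos went the other way. In the window at 74468500 controls stood at 29.9, 50 and 31.4% and parthenotes at 17.6, 54.2 and 62.2%. Control 2 and parthenotes 2 and 3 were the 3 highest. One CpG of this window, 74468761, had a sign of a sequence variant in control 1 (54.5% A of 11 opposite-strand reads). The last of the 5, at 74452000, had another order: 60.4, 71.25 and 70.4% in controls and 51.0, 86.8 and 69.2% in parthenotes. Its range was 35.8 points, and that of the next window, not named, 34.1. A range of 20 points or more within a group occurred in 23 of 87 SGCE windows (26.4%), against 22.2% of all windows, and the median range was 14.3 against 12.9 points. Control 1 was the lowest embryo in 49 of 87 SGCE windows, against 71.5% of all windows. Control 2 was the lowest in 15 of 87, against 5.23% of all.

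**Figure D4:**
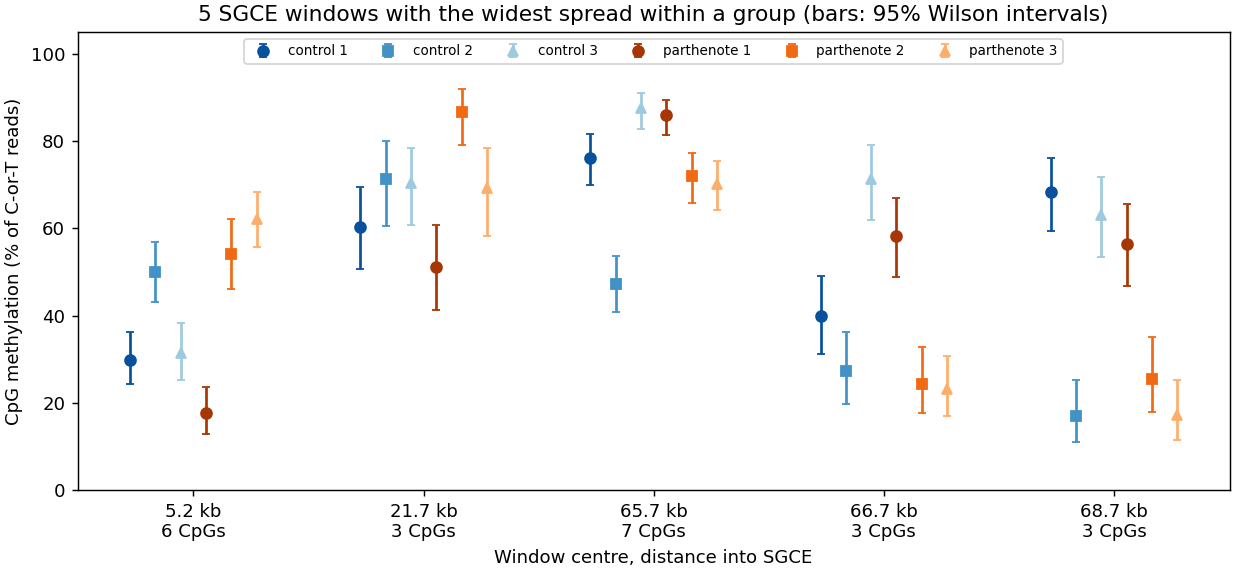
Methylation level (% of C-or-T reads) of each embryo with its 95% Wilson interval in the 5 SGCE windows with the widest range within a group, by distance of the window's centre into the gene. At 68.7 kb control 2 and parthenotes 2 and 3 lie between 17.0 and 25.5%, and at 5.2 kb the same embryos lie between 50 and 62.2%.

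The largest differences at single SGCE CpGs ran from -30.2 to 29.2 points. The 3 with the lowest parthenote minus control difference were 74405291 at -30.2 points, 74407339 at -28.7 and 74465416 at -23.7. The first stood at 63.9, 13.5 and 63.2% in controls and at 36.4, 11.11 and 2.44% in parthenotes, the low and high embryos of its window again. The 3 with the highest were 74408717 at 29.2 points, 74424941 at 27.0 and 74469419 at 23.4. At 74424941 control 1 stood at 29.3%, while every other embryo was at 91.9% or more. There 66.7% of 24 opposite-strand reads of control 1 showed A in place of G, and 0 in the other 5 embryos. At 74408717 controls 2 and 3, at 33.3 and 48.3%, had 40 and 53.8% A. The third, 74469419, had no such sign and stood at 72.7, 48.8 and 67.4% against 88.6, 79.5 and 91.2%, with the groups apart. edgeR called none of these 6: the smallest adjusted p among all SGCE CpGs, 0.324, belonged to 74424941.

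Among the 15 genes with an intron set, SGCE introns ranked 5 from the lowest, at a mean of 77.7% over the 6 embryos. PON2, a paraoxonase, lay just under it at 74.3%, and GNG11 and COL1A2 just above at 77.8 and 78.8%. All 3 differ from SGCE by less than its SD among controls, 4.55 points. The genes whose intron levels were most like those of SGCE over the 6 embryos, by Euclidean distance, were COL1A2 (5.94 points), PON2 (9.47 points) and CALCR (11.6 points), which encode a collagen chain, a paraoxonase and the calcitonin receptor. Control 1 was the lowest embryo in the introns of all 3 and of SGCE. The introns of PEG10, in the imprinted stretch, were at 50.02% ± 3.34 (SD, n = 3) in controls and at 86.4% ± 2.0 (SD, n = 3) in parthenotes. SGCE exons ranked 9 of 14 from the lowest, at 85.6%.

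**Figure D5:**
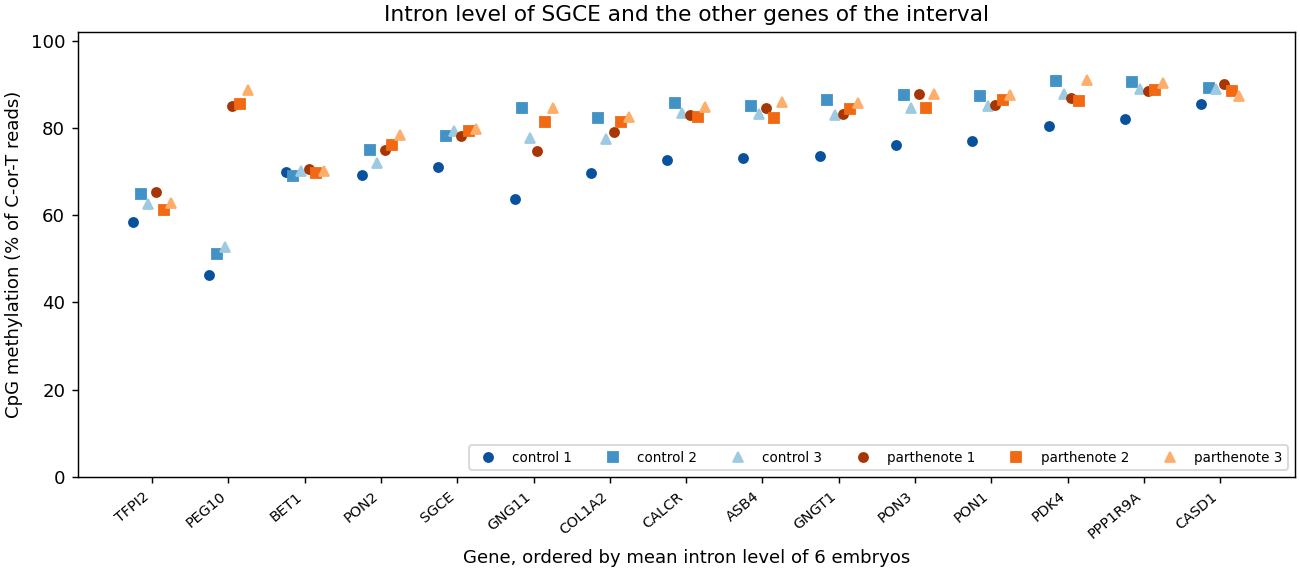
Intron methylation level (% of C-or-T reads) of each embryo for the 15 genes with an intron set, ordered by their mean. SGCE has 4 genes to its left, with control 1 at 71.0% and the other 5 embryos between 78.1 and 79.7%, whereas the controls and parthenotes of PEG10 are separated.

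SGCE and PEG10 belong to an imprinted cluster in mouse and human. For comparison, PEG10, PPP1R9A, ASB4, CALCR, TFPI2, PON2 and PON3 were listed from knowledge of that cluster. Whether each of them is imprinted in both species was not examined here. Of the 31 exon, intron, UTR and promoter sets of these 7 genes, edgeR called 3 higher in parthenotes and 0 lower, against 4.41% of all 68 sets. All 3 were of PEG10, its 5' UTR, introns and promoter, and they were the only sets called in the interval. Without PEG10, 0 of 26 sets were called, with differences from -4.83 to 5.95 points and an edgeR adjusted p of at least 0.914. SGCE, at 0 of 2 sets outside its edge, had differences of 0.547 and 2.83 points.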

How the data were processed

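The deposited tables list, per embryo, the cytosines of CpGs on each strand. Per the file headers, the authors gave counts of C reads and of C-or-T reads, opposite-strand counts of G and of G or A, an expected count (the C-or-T count times the share of G on the opposite strand) and a methylation fraction, C over that expected count. The submitters' processing notes name BSMAP 2.87 and Sscrofa11.1, and trimming and duplicate removal are not given in the sources used here. Gene positions and names came from a RefSeq table of the same build. No genome sequence was used here.

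Raw counts were summed over both strands. CpGs with 10 or more reads in every embryo, windows of 500 bp with 3 CpGs and 30 reads, and gene sets were each tested over the whole interval with edgeR 4.0.16 (R 4.3.3), with a coverage term per embryo and a group term. P-values were adjusted by Benjamini-Hochberg, and an adjusted p under 0.05 was a call. The script was tested on simulated data. Single levels were compared by exact permutation. Alternatives used limma 3.58.1 (pseudocount 1), DESeq2 1.42.0, Fisher's exact test, other limits, the authors' expected counts and each embryo left out. Embryos were grouped by title. A sign of a sequence variant was 20% or more A among 10 or more opposite-strand reads in an embryo, which misses changes that leave no call. The 15 SGCE CpGs under the read limit were not tested.

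Named items are SGCE in each class and distance bin, the 3 CpGs with the largest difference in each direction, runs of windows under 60% (gap of at most 500 bp, up to 8), the 5 windows with the largest range within a group and the 3 genes nearest in intron level. The CpGs, lists and rules were chosen with earlier results of these data known. Reads carry no molecular identifiers and a read over several CpGs counts at each, so Wilson intervals are likely too narrow.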

Additional observations from a re-analysis of the deposited data

How the results depend on the processing

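Of 82 alternative values, 71 kept their direction or count, but some of these could not change. The replicate block leaves each level difference as it was. At the single CpG of the first 2 kb, which has no variant sign, the unweighted mean and leaving out variant-sign CpGs also change nothing. Centring in limma and CpGs without a variant sign were added after seeing the data. With the reads of a group pooled, so that embryos no longer count as replicates, Fisher's exact test called 14 SGCE CpGs (3 lower), 20 windows (2 lower) and 1 set. With the replicate number as a block, edgeR called 1 SGCE CpG, 74424941 (adjusted p = 0.014), which carries a variant sign, the edge window at 74473000 (adjusted p = 0.0169) and the edge CpGs 74472672 and 74472679 (adjusted p = 0.0481 and 0.0349); SGCE windows and sets stayed at 0. Whether equal numbers pair the embryos is not given in the labels. Same-numbered embryos had Pearson correlations of 0.191, 0.188 and -0.278 over 1911 windows, and control 2 correlated best with parthenote 3 (0.444). These are not correlations of raw levels, which are alike between embryos, and with 3 embryos per group they cannot decide the pairing. Leaving out 1 embryo at a time gave 0 called SGCE CpGs, windows and sets throughout. The body difference was then 0.086 to 4.16 points, that relative to other bodies -1.21 to 0.485, at the single CpG of the first 2 kb -3.03 to 12.4, and beyond 5 kb -0.315 to 3.88. The sign turned relative to other bodies without control 1 (0.458), control 3 (0.485), parthenote 1 (0.1) or parthenote 3 (0.0905). It turned in the first 2 kb without control 3 (-3.03) or parthenote 2 (-0.538), and beyond 5 kb without control 1 (-0.315). Exact p-values cannot go below 0.1, or 0.2 with an embryo left out. Edge CpGs near the start are shallow, with 10 to 19 reads at the 5 tested in its first 500 bp.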

Other observations

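A sign of a sequence variant was seen at 19 of the 488 SGCE CpGs (3.89%), against 414 of 14091 over the interval (2.94%). It was in control 1 only at 12 CpGs, in controls 2 and 3 at 5, in controls 1 and 3 at 1 and in parthenote 3 at 1. At 6 of the 19, a parthenote had no opposite-strand read with G or A at the cytosine, and no control did. At 5 of these 6 that parthenote stood at 0% methylation: parthenote 1 at 74427705, 74432929 and 74464244, and parthenote 2 at 74467180 and 74468761. At 74432929, for instance, parthenotes 2 and 3 stood at 96.4 and 100%, control 1 at 88.9%, and controls 2 and 3 at 42.9 and 37.5% with 57.9 and 57.1% A. Over the 465 CpGs of the body without a sign, control 1 stood at 73.3% and the other 5 embryos at 79.0 to 80.6%.

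In the 18 CpGs upstream of both genes, parthenotes stood at 97.2, 100 and 96.0% and controls at 63.4, 61.3 and 12.8%. Control 3 was far below the other controls, on 62 to 107 reads per embryo. The 138 intergenic CpGs whose rows name SGCE stood at 80.5, 91.7 and 87.9% in controls and at 86.8, 88.8 and 88.3% in parthenotes, with control 1 lowest.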
